A study of Arabidopsis thaliana with 12 samples.

Results

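3-Bromoindazole (3BRO) is a bicyclic indazole that carries a bromine, and its arrays were compared here with those of the solvent dimethyl sulfoxide (DMSO). The comparison holds 3 arrays of 3BRO and 3 of DMSO, out of 12 arrays in the series, chosen by the treatment code in the array titles. All 4 treatment groups were wild-type Arabidopsis thaliana of the Col-0 accession, sampled as whole seedlings. Seeds had 3 days of darkness at 4 °C and then 4 days of continuous blue light at 10 µmol per square metre and second, on medium with the solvent alone or with a chemical at 2.5 µM. The other 6 arrays belong to 7-nitroindazole (7NIT), which has the nitro group without the bromine, and to 3-bromo-7-nitroindazole (3B7N), which has both. The series is titled after 3B7N and hypocotyl elongation in blue light, so 3BRO is the analogue that keeps the bromine and lacks the nitro group. A cry1cry2 genotype named in its design text was not analysed here. The labels give a replicate number and no culture or harvest, so the p-values measure how far these samples spread, and that spread may be technical.

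Blue light stops the rapid growth of the seedling stem and switches on the photosynthetic programme. The cryptochromes CRY1 and CRY2 and the phototropins absorb it, and the transcription factor HY5 acts downstream to activate genes such as chalcone synthase, while the PIF factors promote elongation. Seedlings that take up a foreign chemical commonly raise glutathione transferases, cytochromes P450 and glycosyltransferases, which modify and conjugate it. Copper and iron supply also has a known readout in Arabidopsis, since the factor SPL7 replaces copper enzymes by iron enzymes such as the superoxide dismutase FSD1 when copper is scarce.

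A level below is the log2 processed signal minus the 75th percentile of its array, and a difference is the mean level with 3BRO minus that with DMSO. On the 6 arrays the 75th percentile was 1768 to 2205 with DMSO and 2366 to 2920 with 3BRO, and 77.1% to 82.3% of probes were well above background. Across genes, which are not independent replicates, levels correlated with r of 0.982 to 0.993 within DMSO, 0.983 to 0.991 within 3BRO and 0.973 to 0.993 between them. The 3 DMSO arrays and 3BRO replicate 1 lay on the first slide, whereas 3BRO replicates 2 and 3 lay on the second slide with a later scan day. Slide and scan day therefore overlap with treatment in part, and with either as a block the estimate rests on 3BRO replicate 1 alone.

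The main question was which transcripts differed between seedlings on 3BRO and on the solvent. Of 23545 genes tested, 1 was higher and 0 were lower with 3BRO at an adjusted p under 0.05 (limma with Benjamini-Hochberg adjustment), a share of 0.00425%. At an unadjusted p under 0.05 there were 300 higher and 585 lower genes, 3.76% of those tested. The median difference was -0.02 on the log2 scale, with 5th and 95th percentiles of -0.49 and 0.40. For 19148 genes, or 81.3%, the 95% confidence interval of the difference lay wholly between -1 and 1 log2, so a change of 1 log2 or more lay outside the interval. The median distance from the estimate to the end of its interval was 0.45 log2. That precision depended on brightness, with 63.1% of the dimmest 7850 genes having such an interval, against 88.6% of the middle 7849 and 92.3% of the brightest 7846. By way of comparison, 328 genes (1.39%) had an estimate of at least 1 log2 in size.

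**Figure D1:**
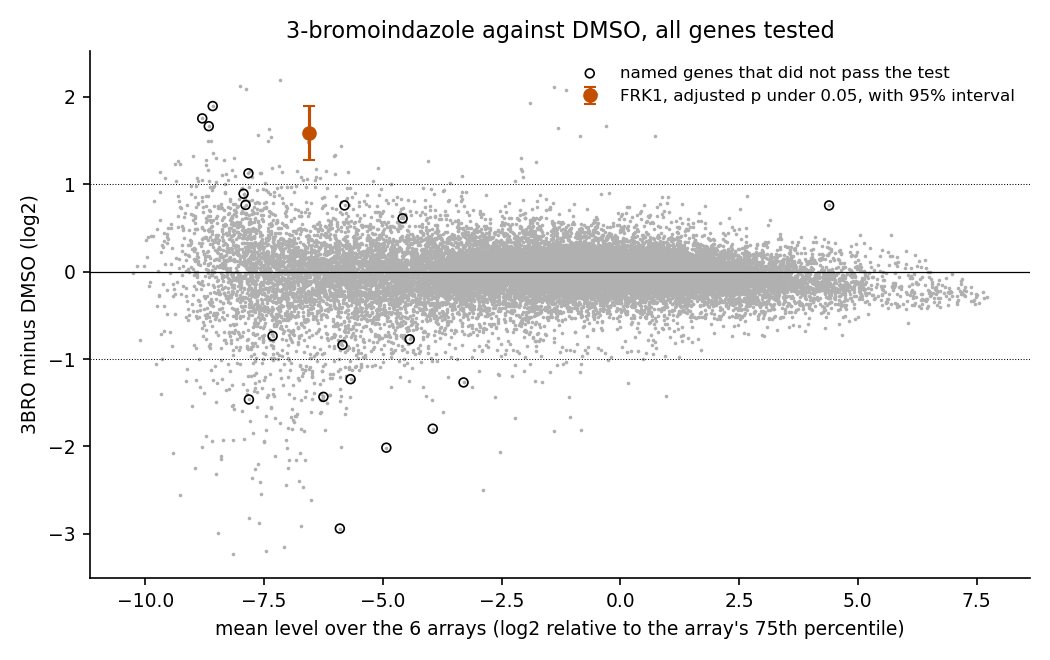
Difference between 3BRO and DMSO (log2, vertical axis) against the mean level over the 6 arrays (log2 relative to the 75th percentile of each array, horizontal axis) for the 23545 genes tested. FRK1, drawn with its 95% interval, is the single gene past the threshold, open circles mark the other 19 named genes, dotted lines mark 1 log2 either way, and the scatter of the differences narrows from the dim to the bright genes.

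FRK1 (AT2G19190), a receptor-like kinase gene that is induced by the bacterial flagellin peptide and serves as an early marker of pattern-triggered immunity, rose with 3BRO. Its level was -7.26, -7.31 and -7.45 on the DMSO arrays and -5.48, -5.85 and -5.94 on the 3BRO arrays. The 3 values with 3BRO all lay above the 3 with DMSO, and the gap between the groups was wider than the spread within either. The means were -7.34 ± 0.10 with DMSO and -5.75 ± 0.24 with 3BRO (SD, n = 3 arrays each), a rise of 1.59 log2 (SE 0.139, 95% confidence interval 1.28 to 1.89, limma adjusted p = 0.00588). In the processed signal itself the spots read 12.8, 13.9 and 10.1 with DMSO and 53.2, 50.7 and 40.4 with 3BRO, so the gene was dim in both groups, although its probe was well above background on all 6 arrays. FRK1 levels with the other compounds were -7.76, -7.86 and -7.69 with 7NIT and -7.02, -7.17 and -7.01 with 3B7N, and no array of these overlapped with 3BRO. On the first slide alone, 3BRO replicate 1 stood 1.86 above the DMSO mean, and replicates 2 and 3 on the second slide stood 1.45 above it. The gene passed with slide as a block (1.86, adjusted p = 0.00973) and with the replicate number as a block (1.59, adjusted p = 0.0233). It did not pass after normexp background correction, where the difference was 0.20 (adjusted p = 0.999), in a fit of the 6 arrays alone (adjusted p = 0.263), with an intensity trend in the prior variance (adjusted p = 0.189) or without DMSO replicate 3 (1.53, adjusted p = 0.0533). The normexp step adds an offset of 50, near or above the FRK1 signals, which shrinks differences between dim spots.

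Next to FRK1, the 9 higher genes of smallest unadjusted p whose groups did not overlap are named here, and none passed the threshold. AT1G12080 is a locus to which the gene table gives no symbol. AT1G12080 had levels of 3.86, 4.39 and 3.81 with DMSO and 4.86, 4.74 and 4.72 with 3BRO, a difference of 0.76 (95% confidence interval 0.41 to 1.10, adjusted p = 0.903). All 3 arrays of 3BRO lay above all 3 of DMSO, and the 3 probes of this locus gave 0.76, 0.79 and 0.91. MIR167c, a precursor of the microRNA that targets the auxin response factors ARF6 and ARF8, had levels of -6.26, -6.08 and -6.22 with DMSO and -5.35, -5.48 and -5.46 with 3BRO, a difference of 0.76 (0.40 to 1.12, adjusted p = 0.964). CCOAMT, a methyltransferase gene of phenylpropanoid metabolism, had -4.88, -4.96 and -4.82 against -4.16, -4.22 and -4.46, a difference of 0.61 (0.29 to 0.93). In both genes the values within a treatment lay closer together than the treatments did.

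The remaining 6 higher genes were AT2G28725, AT2G36710, AT1G04380, AT4G30880, AT3G45252 and AT1G62160. All but AT3G45252 were well above background on none of the DMSO arrays, so their folds are bounds. Each bound sets the 3BRO mean against the DMSO values after raising the latter to the lowest signal of any probe well above background on the same array. By that measure AT1G04380 was at least 1.71-fold higher with 3BRO, AT4G30880 at least 1.47-fold, AT1G62160 at least 1.33-fold, AT2G36710 at least 1.16-fold and AT2G28725 at least 1.08-fold. The fitted differences of these 5 genes ran from 0.89 for AT4G30880 to 1.89 for AT1G62160. AT3G45252, with 1 DMSO array well above background, stood at 0.76. AT2G36710 was well above background on all arrays of 3BRO alone, so it entered the test through that group. After normexp background correction all 6 turned below 0, to between -0.24 for AT2G36710 and -0.10 for AT1G04380. That correction adds an offset of 50, above their processed signals of at most 19.7 on the 6 arrays. It therefore shrinks their differences and cannot show their direction, which these arrays did not settle.

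Of the 10 genes named in the other direction, none passed either. SPIK, an inward-rectifying potassium channel known from pollen, had the smallest p, with levels of -6.99, -6.95 and -6.92 with DMSO and -7.74, -7.62 and -7.71 with 3BRO. In these levels the groups were tight and did not overlap. The difference was -0.74 (95% confidence interval -1.01 to -0.46, adjusted p = 0.567). In the processed signal the SPIK spots read 15.5, 17.8 and 14.6 with DMSO and 11.1, 14.8 and 11.9 with 3BRO. These dim signals overlapped between the groups, so the separation appeared only after the scaling of each array. AT2G18340 had the most negative estimate, with -4.84, -5.15 and -3.32 against -7.25, -7.94 and -6.93, a difference of -2.94 (-4.18 to -1.70, adjusted p = 0.901). Here DMSO replicate 3 stood apart from the other DMSO arrays, on the side away from 3BRO, and raised the size of the difference. Leaving it out could not undo the separation.

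GRF8, a growth-regulating factor of leaf cell proliferation, had levels of -4.85, -4.94 and -5.41 with DMSO and -5.82, -6.57 and -6.50 with 3BRO, a difference of -1.23, and its second probe gave -0.88. AT1G27461 stood at -1.80, with -1.30 from its second probe. AT4G16200 stood at -2.01, but its second probe gave -0.47, so its probes disagreed on size. AT3G19320 was at -1.43, AT4G25250 at -1.27, AT2G29370 at -0.84 and AT1G62190 at -0.77, each well above background on all 6 arrays. AT1G14930 was well above background on 2 DMSO arrays and on none of 3BRO, and was at least 2.52-fold lower. As the 20 named genes were chosen for small p and separated groups, that separation is a description and carries no test.

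**Figure D2:**
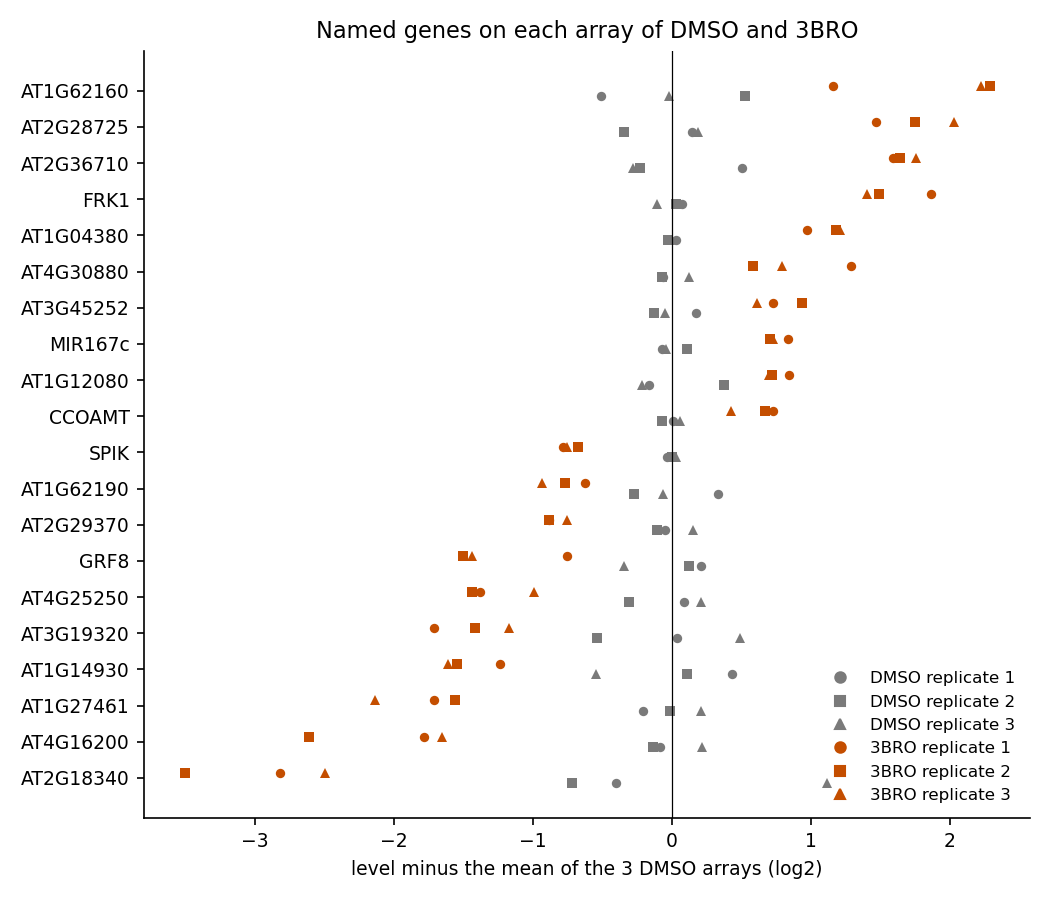
Levels of the 20 named genes on the 3 DMSO (grey) and 3 3BRO (orange) arrays, 1 point per array, as the difference from the mean of the DMSO arrays (log2, horizontal axis). FRK1 stands above its DMSO points by 1.59 and is the gene that passed, while the other 19 were separated without passing.

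The named lists hold 1016 distinct tested genes in 36 lists, of which 1 was called (FRK1, in the salicylic acid and pathogen list), or 0.0984%. At an unadjusted p under 0.05 there were 7 higher and 75 lower genes in them, or 8.07%, beside the 300 higher and 585 lower (3.76%) of all genes tested. A gene is called fully above DMSO when its lowest 3BRO array exceeded the highest DMSO array, and fully below in the reverse case. Of 23420 genes with values on all 6 arrays 3.38% were fully above and 5.78% fully below.

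No photoreceptor gene passed, and the intervals were narrow. CRY1 had levels of 3.48, 3.65 and 3.85 with DMSO and 3.39, 3.54 and 3.72 with 3BRO, a difference of -0.11 (95% confidence interval -0.43 to 0.21). CRY2 had 2.66, 2.73 and 2.82 against 2.68, 2.53 and 2.46, a difference of -0.18 (-0.48 to 0.13). In both genes the groups overlapped. PHOT1, a phototropin that steers growth toward light, stood at 0.12 (-0.20 to 0.43). For all 14 photoreceptor genes tested the interval lay between -1 and 1, 7 estimates were below 0, and the list median was -0.00. Among them were UVR8, the receptor of ultraviolet B, at 0.17 and LKP2, a blue-light-sensing F-box protein, at -0.22.

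Of 20 light signalling genes 10 were below 0, and the median was 0.00. HY5 had 1.64, 1.60 and 0.91 with DMSO and 1.70, 1.47 and 1.57 with 3BRO, a difference of 0.20 (95% confidence interval -0.30 to 0.70), with DMSO replicate 3 low. PIF3 stood at 0.44 (-0.29 to 1.18). PIF4, a growth-promoting factor, varied widely within each group, from 0.24 to 2.13 with DMSO and from 0.77 to 2.10 with 3BRO, so its difference of 0.34 was poorly determined (-0.81 to 1.48). These arrays thus bound PIF4 far less than CRY1.

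PIF-target and shade genes had 6 of 20 members below 0 and a median of 0.17. FHL, which carries phytochrome A into the nucleus, stood at 0.60 with separated groups. PIL1, a shade marker, had -1.67, -1.23 and -2.09 with DMSO and -1.09, -0.71 and -1.62 with 3BRO, a difference of 0.52. The groups overlapped, while the differences between same-numbered arrays were 0.58, 0.52 and 0.47, and the gene did not pass with the replicate number as a block either. None of the 20 passed. The list had a median of -0.50 on the first slide and of 0.48 for the replicates on the second slide, and its medians between same-numbered arrays were -0.11, 0.34 and 0.25. The sign of the list median thus differed between arrays in both views.

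None of the photosynthesis genes passed, and most of their estimates were small and below 0. Of 20 light-harvesting antenna genes all 20 were below 0 (median -0.29, with 6 fully below DMSO), of 24 photosystem and plastocyanin genes all 24 (median -0.24, 4 fully below), and of 18 Calvin cycle genes all 18 (median -0.32, 10 fully below). In chlorophyll synthesis 14 of 17 were below 0 (median -0.23). With each gene centred on its mean over the 6 arrays, the antenna median was -0.00, -0.04 and 0.46 on the DMSO arrays. It was -0.29, -0.14 and 0.10 on the 3BRO arrays, so 3BRO replicate 3 lay within the DMSO range. That also held for the photosystem and chlorophyll lists, each highest on DMSO replicate 3. The Calvin cycle medians were 0.14, -0.01 and 0.31 with DMSO against -0.10, -0.23 and -0.15 with 3BRO, without overlap. Between same-numbered arrays the median differences were -0.37, -0.08 and -0.36 for the antenna list and -0.29, -0.04 and -0.32 for the photosystem list. They were -0.32, -0.07 and -0.18 for chlorophyll synthesis and -0.24, -0.20 and -0.50 for the Calvin cycle. Over all genes, 12872 of 23545 estimates (54.7%) were below 0 with a median of -0.02.

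SBPASE, a phosphatase that regenerates the carbon acceptor of the Calvin cycle, had levels of 6.38, 6.26 and 6.48 with DMSO and 6.11, 5.96 and 5.97 with 3BRO, a difference of -0.36 (95% confidence interval -0.65 to -0.06). GAPA-2, a subunit of plastid glyceraldehyde phosphate dehydrogenase, had 6.91, 6.59 and 7.07 against 6.45, 6.45 and 6.55, a difference of -0.38. In both genes the 3BRO arrays all lay below the lowest DMSO array. LHCB4.3, a minor antenna protein, had 3.68, 3.57 and 3.30 against 3.25, 3.09 and 2.68, a difference of -0.51 (-0.90 to -0.12). PSAE-1, a subunit of photosystem I, stood at -0.38, and PETC, the Rieske protein of the cytochrome b6f complex, at -0.37. CHLM, a methyltransferase of chlorophyll synthesis, stood at -0.35 with separated groups, and PORB, a protochlorophyllide oxidoreductase, at 0.28 with overlap.

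Many of these photosynthesis genes gave bright spots, and bright genes outside the lists were mostly below 0 too. Of 265 genes with a mean level above 5, 225 (84.9%) were below 0, with a median of -0.20. The 53 of them in the 4 photosynthesis lists were all below 0 with a median of -0.28, and the 181 that belonged to none of the 36 lists had 150 (82.9%) below 0 and a median of -0.17. After quantile normalisation the medians of these 3 sets became -0.01, -0.05 and -0.00, whereas they were -0.19, -0.26 and -0.15 after normexp correction and -0.20, -0.27 and -0.16 with each array centred on its median. Quantile normalisation gives every array the same distribution of levels, which pulls the median difference of the brightest genes toward 0 by design. It therefore cannot show whether bright genes changed together. Under quantile normalisation the antenna median became -0.04 with 13 of 20 below 0, the photosystem median -0.03 with 14 of 24, and the Calvin cycle median -0.10 with 16 of 18. After normexp correction 20 of 20, 23 of 24 and 18 of 18 were below 0.

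Transcripts of the organelle genomes were mostly below 0 as well, and the mitochondrion-encoded genes had the most negative median of the 36 lists. Of 59 mitochondrion-encoded genes 56 were below 0, 20 lay fully below DMSO, and the median was -0.63. With each gene centred on its mean over the 6 arrays, the median of these 59 genes was 0.26, 0.11 and 0.58 on the DMSO arrays and -0.57, -0.59 and 0.20 on the 3BRO arrays, so 3BRO replicate 3 lay within the DMSO range of these centred values. At each replicate number the mitochondrial median with 3BRO lay below that with DMSO. Of 66 plastid-encoded genes 56 were below 0, 17 lay fully below DMSO, and the median was -0.35. None of either list passed.

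In the flavonoid and anthocyanin list, 17 of 20 genes were below 0, 7 lay fully below DMSO, and none passed. The median was -0.41, and -0.28 after quantile normalisation. TT4, the chalcone synthase that opens the pathway and a classic HY5 target, had levels of 3.43, 2.95 and 3.30 with DMSO and 2.75, 2.69 and 2.84 with 3BRO. The 3BRO values were tightly grouped below the lowest DMSO value, with a difference of -0.47 (95% confidence interval -0.96 to 0.02, adjusted p = 0.996). C4H and PAL2, enzymes of the preceding phenylpropanoid steps, stood at -0.43 (-0.74 to -0.12) and -0.47 (-0.81 to -0.13). PAL2 had 4.05, 3.77 and 3.65 with DMSO against 3.34, 3.42 and 3.31 with 3BRO, again without overlap.

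Growth and hormone lists had medians close to 0 and no member that passed. The 28 auxin genes had a median of 0.08 with 12 below 0, and the 26 gibberellin and brassinosteroid genes a median of -0.08 with 17 below 0. GASA1, a small gibberellin-regulated protein, had 4.66, 5.08 and 4.70 with DMSO and 4.96, 5.10 and 5.32 with 3BRO, a difference of 0.32, and the groups overlapped. GA3OX2, an enzyme that makes active gibberellin, stood at -0.72 with separated groups. Of 27 cell wall expansion genes 17 were below 0, with a median of -0.11 and 4 fully below DMSO. XTH5, a xyloglucan-modifying enzyme, had -1.25, -1.58 and -1.26 with DMSO and -2.30, -2.01 and -1.70 with 3BRO, a difference of -0.64 (95% confidence interval -1.06 to -0.22). EXPB3, a beta-expansin of wall loosening, had -0.80, -1.38 and -0.79 against -1.61, -1.83 and -1.97, a difference of -0.81. Both were lower on every 3BRO array, and neither passed (adjusted p = 0.996 for each).

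Among 32 xenobiotic detoxification genes 0 passed, 14 were below 0 and the median was 0.09. Of the 32, 7 (21.9%) lay fully above DMSO and 2 lay fully below. GSTF6, a glutathione transferase induced by many stresses, had levels of -0.22, -0.04 and -0.01 with DMSO and 0.53, 0.54 and 0.22 with 3BRO, a difference of 0.52 (95% confidence interval 0.17 to 0.88). GSTF7, its near neighbour in sequence, had -3.10, -2.54 and -2.80 against -2.31, -1.69 and -2.51, a difference of 0.64 (0.12 to 1.16). The groups were separated in both, and a probe of one copy may bind transcripts of the other. CYP81D11, a cytochrome P450 known to respond to synthetic chemicals, stood the other way, at -0.34, with 1.83, 1.84 and 2.14 against 1.50, 1.62 and 1.66. Of the wider families, 123 of 198 cytochromes P450 were below 0 (median -0.06, 4 fully above and 20 fully below), and 28 of 59 UDP-glycosyltransferases were.

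Of 16 oxidative stress genes 10 were below 0, with a median of -0.15. GPX7, a plastid glutathione peroxidase, had -1.29, -2.11 and -1.64 with DMSO and -3.05, -2.57 and -2.20 with 3BRO, a difference of -0.93 (95% confidence interval -1.54 to -0.32), and its groups did not overlap. The catalase genes stood apart from each other, with CAT2 at -0.39 (-0.78 to -0.00) and CAT3 at 0.42 (-0.01 to 0.84). None of the 16 passed.

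Copper genes are given in detail because FSD1 passed in both comparisons between compounds further down. FSD1, the iron superoxide dismutase that marks low copper, had levels of 4.48, 4.28 and 4.69 with DMSO and 4.54, 4.12 and 4.08 with 3BRO, a difference of -0.24 (95% confidence interval -0.67 to 0.19). Its groups overlapped, and with slide as a block it stood at 0.05. CCS, the chaperone that loads copper into superoxide dismutase, had 3.29, 3.16 and 3.34 against 3.31, 3.21 and 3.25, a difference of -0.01 (-0.26 to 0.25). CSD1, the cytosolic copper enzyme, stood at 0.24 and COPT2, a copper importer, at -0.33 with 0.97, 0.96 and 1.06 against 0.66, 0.78 and 0.57. MIR408, precursor of a microRNA against copper proteins and not in the copper list, was scattered within both groups, at 0.38 (-0.60 to 1.36). Of the 21 copper genes 16 were below 0, the median was -0.18, 4 lay fully below DMSO, and none passed.

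Most iron-deficiency estimates were below 0, again with none past the threshold. Of 14 genes 12 were below 0, 8 (57.1%) lay fully below DMSO and 1 fully above, and the median was -0.45, which became -0.40 after quantile normalisation and -0.39 after normexp correction. NAS4, a nicotianamine synthase for metal transport, had -2.30, -2.71 and -2.20 with DMSO and -3.23, -3.29 and -3.19 with 3BRO, a difference of -0.84 (95% confidence interval -1.43 to -0.24). The 3BRO values were nearly identical to one another and all lower. FRO3, a mitochondrial iron reductase, was the member fully above, with -0.42, 0.04 and -0.51 against 0.06, 0.51 and 0.14, a difference of 0.53 (0.13 to 0.93). IRT1, the main iron importer of the root, had -7.95, -7.59 and -3.71 with DMSO and -9.59, -8.05 and -10.06 with 3BRO. It was well above background on none of the 3BRO arrays. Its group means gave a bound of 3.51-fold lower with 3BRO. DMSO replicate 3 alone set that size, so the bound does not hold for the other DMSO arrays. The 9 root tissue markers, IRT1 among them, had a median of -0.10 and the 9 root hair markers one of -0.17, and their part in the iron values was not tested.

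Defence and secondary-metabolism lists were mixed apart from FRK1. Of 19 salicylic acid and pathogen genes 11 were below 0, with a median of -0.09. PR1, the salicylic acid marker, had -7.25, -8.41 and -8.01 with DMSO and -8.38, -6.31 and -6.65 with 3BRO, so its difference of 0.78 came from the second slide, and with slide as a block it stood at -0.48. PR5 stood at -0.53 with separated groups. Of 14 jasmonate genes 13 were below 0 with a median of -0.45, which was -0.00 on the first slide, and VSP1, a jasmonate-induced storage protein, stood at 0.02. The jasmonate medians between same-numbered arrays were -0.46, -0.06 and -0.46. Of 70 WRKY factors, a family of defence regulators, 36 were below 0. In the glucosinolate list (7 of 15 below 0, median 0.05) the chain-elongation genes MAM1 and IMS2 stood at 0.80 and 0.82. MAM1 had -5.96, -5.53 and -5.93 with DMSO and -5.02, -5.15 and -4.83 with 3BRO, without overlap, and IMS2, its tandem relative, had -5.05, -4.59 and -4.99 against -3.90, -4.42 and -3.83.

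Of 19 circadian clock genes 7 were below 0, with a median of 0.05. The morning factor LHY had 2.96, 2.57 and 2.55 with DMSO and 1.84, 2.18 and 2.20 with 3BRO, a difference of -0.62 (95% confidence interval -1.09 to -0.15), and RVE1, a related factor, stood at -0.52. Both lay fully below DMSO, and PRR3, a pseudo-response regulator, stood at 0.83 with overlap. Lists for nitrate assimilation (median -0.14, with the nitrate reductase NIA2 at -0.35), ethylene, abscisic acid and cold (median -0.01), heat shock (0.09), cell division (0.09) and dark-inducible genes (0.15) had no member that passed. Tissue markers were measured as a check on the makeup of the seedlings. All 9 root hair markers were below 0, with a median of -0.17 that was -1.004 on the first slide and 0.27 on the second, SHV2 standing at -0.42. Of the other markers 6 of 9 for root, 10 of 13 for seed, 4 of 5 for vascular and 3 of 5 for stomatal tissue were below 0, and none passed. All of these markers but 1 of 14 for seed passed the detection filter. In whole seedlings fewer cells of a type and less RNA per cell cannot be told apart.

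**Figure D3:**
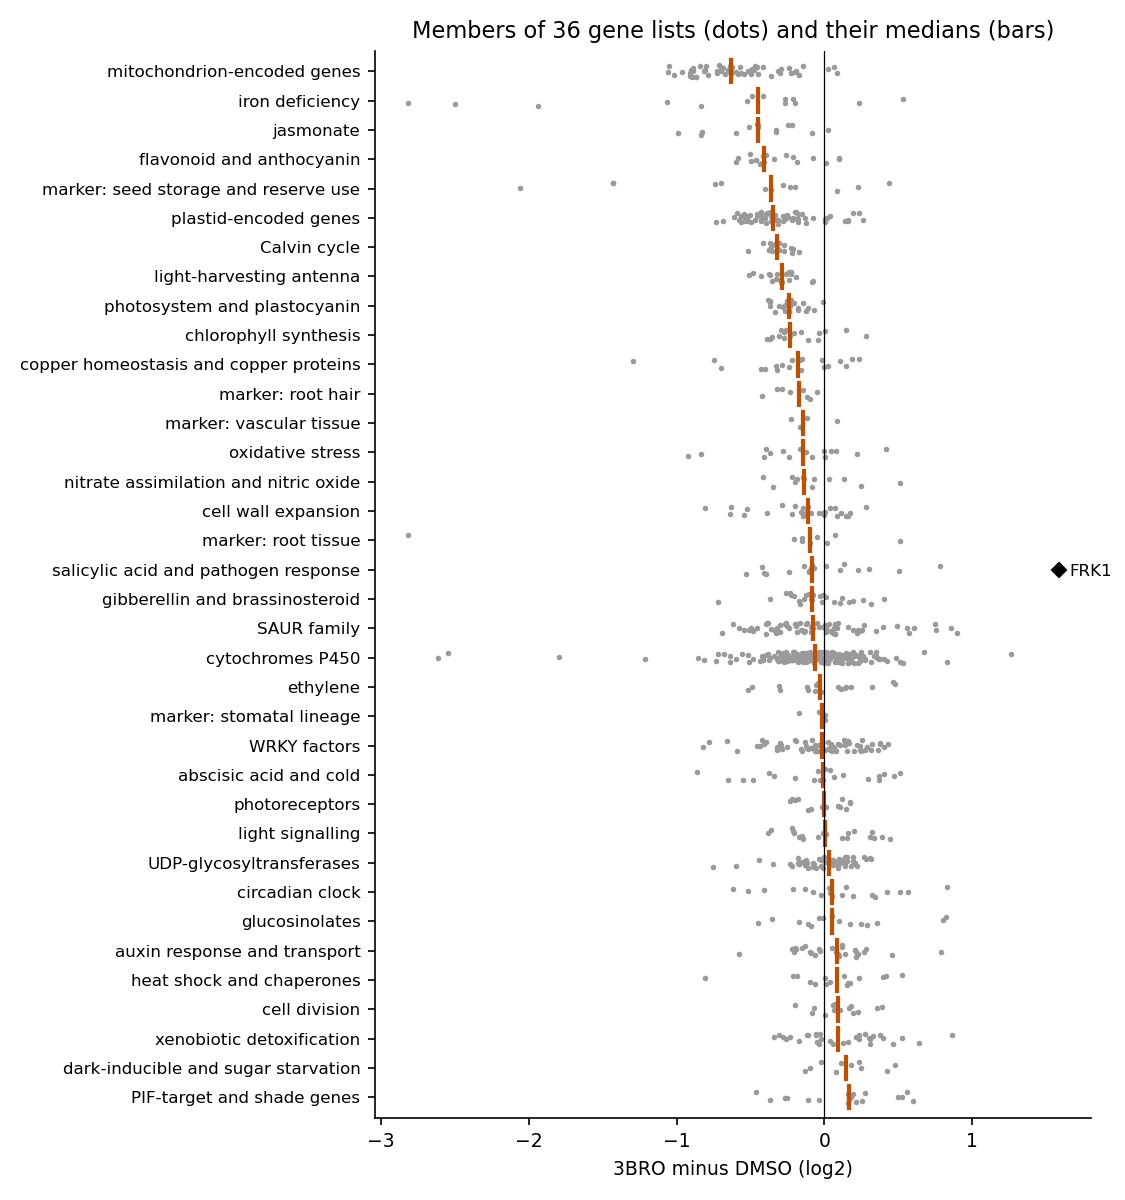
Differences between 3BRO and DMSO (log2, horizontal axis) of the tested members of each gene list, 1 point per gene, with the list median marked. Points scatter around 0 in most lists, and the photosynthesis, flavonoid, iron, jasmonate, seed and organelle lists sit to the left with medians from -0.63 to -0.23.

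The slides bear on these medians, because only 3BRO replicate 1 shared a slide with DMSO. Of the 36 lists, 13 had medians of opposite sign when 3BRO replicate 1 and 3BRO replicates 2 and 3 were each set against the DMSO mean. Auxin genes stood at -0.33 and 0.26, SAUR genes at -0.45 and 0.13, clock genes at -0.23 and 0.20, and heat shock genes at 0.51 and -0.19. The photosynthesis, flavonoid and mitochondrion lists were not among those 13, and nor were others such as the iron, copper and plastid lists. Both differences share the same DMSO mean, so a sign kept in both is not separate evidence from the second slide.

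With slide as a block 17 genes were higher and 26 lower, 43 in all, against 1 and 0 without it. All 43 had the same sign without the block, but only 8 had an unadjusted p under 0.05 there and 7 had groups that did not overlap. In all 43 genes 3BRO replicate 1 lay outside the other 5 arrays, and 40 of the 43 were among the dimmest 7850 genes. Over the whole series, 3BRO replicate 1 lay above all other 11 arrays in 17 of these genes and below all 11 in 24. With scan day as a block 13 were higher and 19 lower. What belongs to the slide and what to 3BRO replicate 1 was not tested in these genes.

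**Figure D4:**
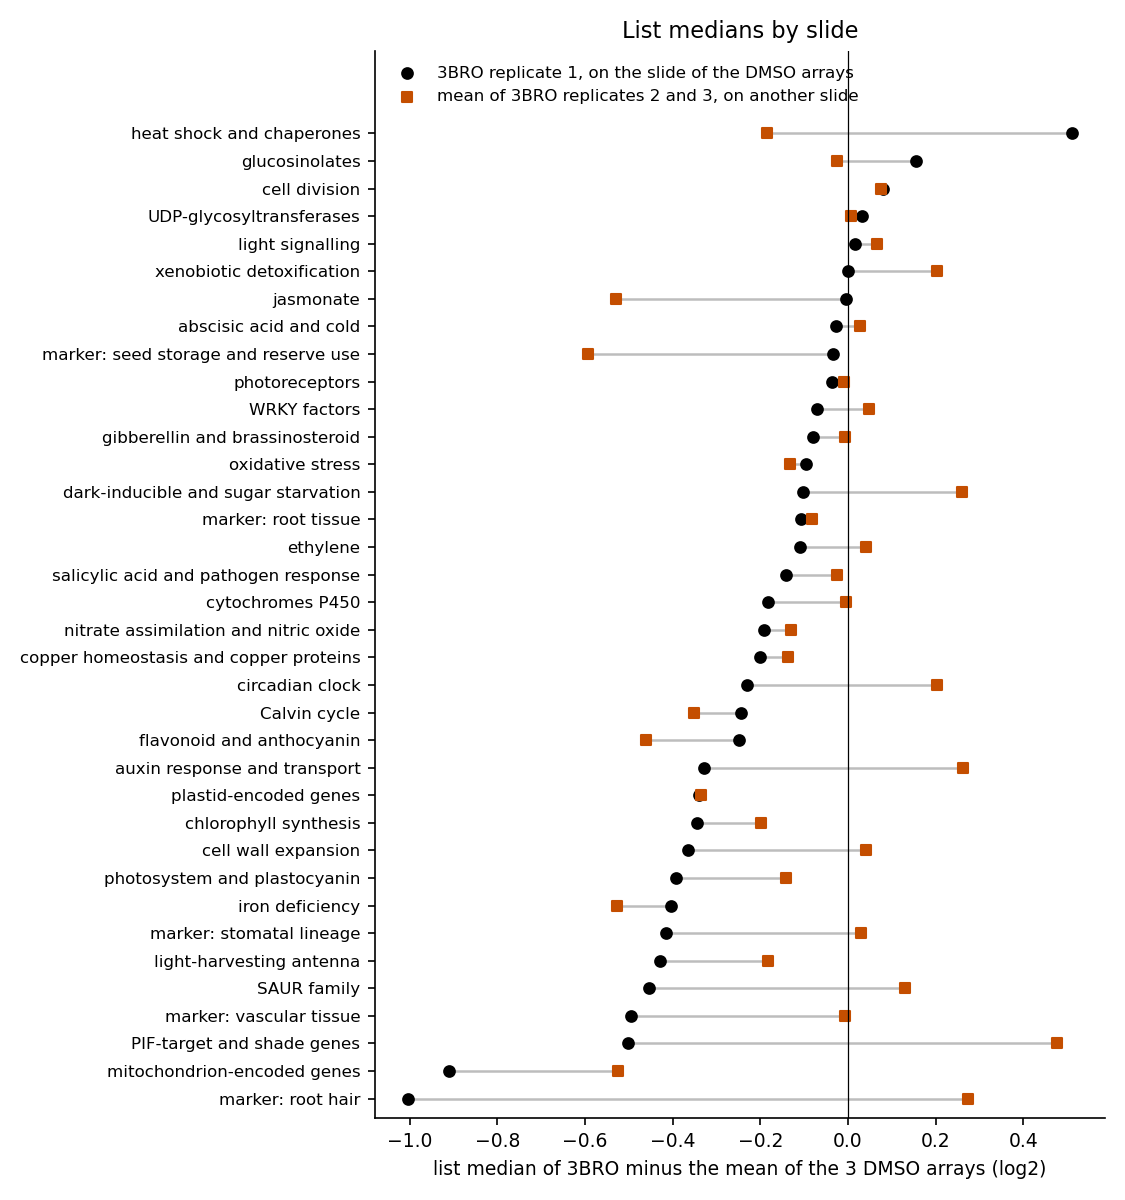
Median difference of each gene list (log2) for 3BRO replicate 1, which shared the slide of the DMSO arrays, and for 3BRO replicates 2 and 3 on the second slide, each against the DMSO mean. The PIF-target list moves from -0.50 to 0.48 and the root hair list from -1.004 to 0.27.

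In all, 3 pairs of groups that include 3BRO were compared, with p adjusted over the genes of each pair. Adjusted over the genes of all 3 pairs together, 5 genes were higher and 10 lower with 3BRO than with DMSO. 3BRO and 3B7N were compared at the same dose to ask what differs when the nitro group is added to the brominated ring. With 3B7N relative to 3BRO 641 genes were higher (2.72%) and 1129 lower (4.80%), together 7.52% of 23541. FRK1 was lower with 3B7N than with 3BRO by -1.31 log2 (SE 0.139, 95% confidence interval -1.62 to -1.01, limma adjusted p = 0.000901). AT1G12080 was higher with 3B7N by 1.63 (adjusted p = 0.000516), with the 3B7N arrays above all 3BRO arrays. Among the other named genes AT1G27461 (1.43, adjusted p = 0.035) and AT1G14930 (1.56, at least 2.69-fold, adjusted p = 0.0131) were higher with 3B7N, and AT1G62190 (-1.02) and AT2G29370 (-1.12) were lower. AT1G14930 was well above background on all arrays of 3B7N alone, so it entered the test through the group where it is higher.

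FSD1 fell to 0.34, 0.56 and -0.14 with 3B7N from 4.54, 4.12 and 4.08 with 3BRO, a difference of -4.00 (95% confidence interval -4.43 to -3.56, adjusted p = 1.4e-05). MIR408 was at least 4.76-fold lower with 3B7N (adjusted p = 0.000947). It was well above background on all arrays of 3BRO alone, so it entered the test through the group where it is high. Its p-value carries that selection. Of the 21 copper genes 9 were lower, COPT2 among them (-0.88), and 1 was higher. Of 20 light signalling genes 0 were higher and 3 lower, HY5 among them at -0.94 (adjusted p = 0.0323), and of 14 photoreceptor genes 1 was higher and 1 lower. TT4 was lower at -1.37 (adjusted p = 0.00625), whereas CRY1 stood at -0.05 and CRY2 at 0.39 (adjusted p = 0.114) without passing. PORA, the oxidoreductase of dark-grown seedlings, had -3.96, -4.50 and -3.77 with 3BRO and -0.26, 0.21 and 0.19 with 3B7N, a difference of 4.12 (adjusted p = 0.000344).

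In the Calvin cycle 11 of 18 genes were lower with 3B7N than with 3BRO, such as SBPASE at -0.91, and in the flavonoid list 6 of 20. Detoxification genes were higher with 3B7N, 14 of 32 in all, among them GSTF6 at 0.86 (adjusted p = 0.0114), CYP81D11 at 1.16 and ABCG40, an exporter of the plasma membrane, at 2.30 (adjusted p = 1.45e-05). ABCG40 had -5.47, -5.39 and -5.24 with DMSO, -5.59, -5.40 and -5.29 with 3BRO, and -3.17, -3.11 and -3.08 with 3B7N. GPX7 was lower with 3B7N than with 3BRO at -2.95, while MAM1 (-1.61, adjusted p = 0.0149) and IMS2 (-1.44, adjusted p = 0.0458), which had positive estimates with 3BRO, were lower with 3B7N than with 3BRO. VSP1 was higher with 3B7N at 1.64, and 4 of 14 jasmonate and 7 of 21 abscisic acid and cold genes were higher. 3BRO replicates 1, 2 and 3 also serve in the comparison with DMSO, so the 2 comparisons share arrays. The count moved to 369 higher and 790 lower with slide as a block, where HY5 (-0.92), MAM1 (-1.60), IMS2 (-1.36) and AT1G27461 (1.34) did not pass. It moved to 211 higher and 440 lower after normexp correction, where FRK1 (-0.75), MIR408 (-1.01) and ABCG40 (1.33) did not pass either and AT1G14930 stood at -0.09.

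The comparison of 7NIT with 3BRO set the compound with only the nitro group against that with only the bromine. It gave 2 higher and 3 lower genes among 23535 (0.0212%, of which 0.00850% higher and 0.0127% lower), with 1502 higher and 695 lower at an unadjusted p under 0.05. FRK1 was lower with 7NIT than with 3BRO by -2.02 (95% confidence interval -2.33 to -1.71, adjusted p = 0.000509), with no overlap. FSD1 was at 2.17, 2.25 and 2.27 with 7NIT, against 4.54, 4.12 and 4.08 with 3BRO, a difference of -2.02 (-2.45 to -1.59, adjusted p = 0.00763). CCS was at 4.38, 4.29 and 4.28 with 7NIT against 3.31, 3.21 and 3.25 with 3BRO, a difference of 1.06 (0.81 to 1.31, adjusted p = 0.0146). In both of these copper-linked genes the 7NIT and 3BRO arrays did not overlap. The 7NIT arrays all lay on slide 3, which held no 3BRO array, so the arrays of these groups cannot tell compound from slide. 3B7N replicates 1 and 2 lay on slide 2 and replicate 3 on slide 3. A fit with slide as a block links 7NIT to 3BRO only through those 3B7N arrays. MIR408 was well above background on none of the 7NIT arrays and at least 3.78-fold lower (adjusted p = 0.0323), though after normexp correction it stood at 0.23, and AT1G67635 was higher by 1.30 (adjusted p = 0.0239, or 0.054 with the replicate number as a block). MIR408 entered this test, too, through 3BRO alone, the group where it is higher. With slide as a block 0 genes were higher and 0 lower, with FRK1 at an adjusted p of 0.120 and FSD1 at -1.29 (adjusted p = 0.140), and after normexp correction FRK1 stood at 0.10. The confidence interval of the difference between 7NIT and 3BRO was -0.31 to 0.32 for CRY1 and -0.18 to 0.80 for TT4, so differences of 1 log2 lay outside it in both genes.

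**Figure D5:**
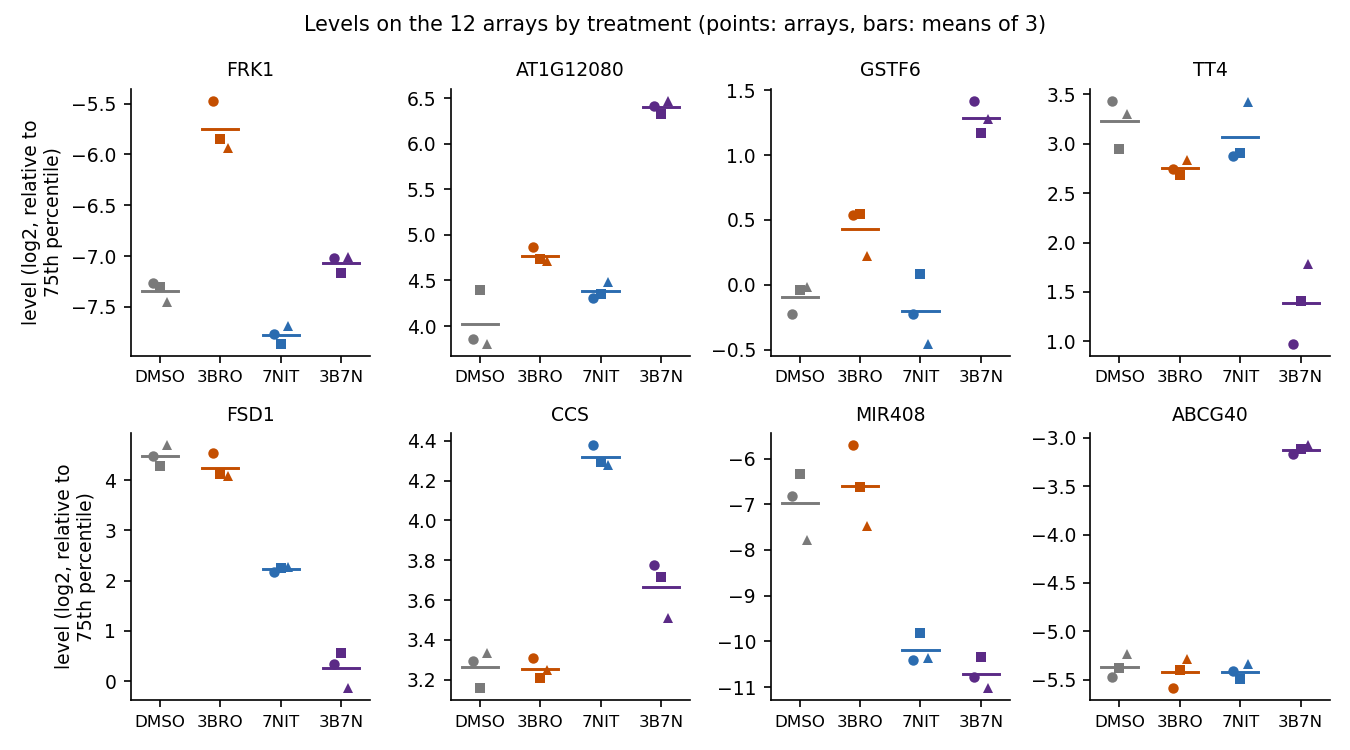
Levels (log2 relative to the 75th percentile of each array) of FRK1, AT1G12080, GSTF6, TT4, FSD1, CCS, MIR408 and ABCG40 on all 12 arrays by treatment, 1 point per array. FRK1 is highest with 3BRO, FSD1 with 3BRO (4.08 to 4.54) lies near DMSO (4.28 to 4.69) and above 7NIT and 3B7N, and ABCG40 is higher with 3B7N.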

How the data were processed

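Labelled cRNA of whole seedlings was measured on one-colour Agilent arrays, 3 per group in 4 groups. The authors deposited the scanner files, for which the submitters' processing notes name Agilent Feature Extraction 10.7.3.1. Their processed signal is a linear intensity with the background removed, per the file headers. The file of 3BRO replicate 2 holds it rounded to 3 significant digits.

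The log2 signal minus the 75th percentile of its array was used. Control spots and flagged outlier spots (150 values in the 6 arrays) were left out. The brightest probe stood for its locus, and that probe had to be well above background on all 3 arrays of a group. In this way 23549 of 29030 loci were tested, 4 of them without a full fit. Genes with several probes numbered 6605. Names came from RefSeq genes of TAIR10.1, which lacked 251 loci, and probes of near-identical copies may bind more than 1 of them.

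All 12 arrays entered one limma 3.58.1 fit (lmFit, eBayes) in R 4.3.3 with version 1.17.8 of data.table, adjusted by Benjamini-Hochberg at 0.05 within each comparison. Intervals are limma's 95% intervals, which the number of arrays limits. The fit was also run on simulated data with independent errors per array. Those data held no slide, scan day or replicate effect, so they cannot speak to such effects here. Deviations of same-numbered 3BRO and DMSO arrays correlated at 0.40, 0.14 and 0.44, and those of 7NIT and 3BRO at 0.11, 0.24 and 0.20. The numbers were therefore treated as a possible pairing. The main fit left it out, and the replicate number entered as a block in an alternative fit. No correlations of differently numbered arrays are given beside these.

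Named genes were the called genes, filled to 10 per direction by smallest unadjusted p among separated groups, list members from the 2 of smallest p per direction, and 7 genes always given, CHS (TT4) and FSD1 among them. Others, such as CCS, MIR408, PORA, ABCG40, VSP1, AT2G30766, AT1G47400 and AT1G47395, were chosen after their values were seen. List members and lists were chosen with earlier results of these data known. Alternatives changed the background correction, normalisation, filter, probe choice, flagged spots, samples, variance trend, slide, scan day, replicate block and single arrays. The mean signal was not used, so normexp took the median signal, with an offset of 50.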

Additional observations from a re-analysis of the deposited data

How the results depend on the processing

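FRK1 is the 1 gene called for 3BRO against DMSO, and the count of higher genes became 0 after normexp correction, in a fit of the 6 arrays alone, with an intensity trend and within the first slide, and 5 when p was adjusted over 3 comparisons together, with 10 lower. It became 17 higher and 26 lower with slide as a block and 13 and 19 with scan day as a block, fits in which 3BRO replicate 1 alone sets the estimate. List members called, 1 as reported, were 0 in the first 4 of these settings and 3 with slide or scan day as a block. Leaving out each array in turn gave 0 to 1 higher, 0 to 1 lower and 0 to 1 list members called (0 higher without DMSO replicate 3, 1 lower without DMSO replicate 2). With the replicate number as a block the count stayed at 1 higher and 0 lower, and was 0 and 0 with that block in the 6 arrays alone, a fit chosen after seeing the data like those within a slide. That block changed 7NIT against 3BRO by no count (2 and 3), and moved AT1G67635 to an adjusted p of 0.054. For 3B7N against 3BRO, whose same-numbered arrays share only a number (correlations of -0.16, -0.07 and -0.06), it gave 761 and 1203.

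For 3B7N against 3BRO the counts were 211 higher and 440 lower after normexp correction, 109 and 122 in the 2 groups alone, 369 and 790 with slide as a block, 379 and 821 with scan day as a block and 1 and 0 within the second slide. Leaving out each array gave 317 to 566 higher and 539 to 1080 lower. For 7NIT against 3BRO they were 0 and 1 after normexp correction, 5 and 3 after quantile normalisation, 0 and 0 with slide as a block and 4 and 8 with scan day as a block. Leaving out each array gave 0 to 3 higher and 1 to 4 lower.

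Directions turned after normexp correction for AT2G28725 (-0.16), AT2G36710 (-0.24), AT1G04380 (-0.10), AT4G30880 (-0.21), AT3G45252 (-0.17), AT1G62160 (-0.15) and CCS (0.11) against DMSO, for AT1G14930 with 3B7N (-0.089), and for FRK1 (0.10) and MIR408 (0.23) with 7NIT. CCS stood at 0.10 after quantile normalisation and PHOT1 at -0.021 as a mean of probes. With slide or scan day as a block, and within the first slide, FSD1 stood at 0.053 and PR1 at -0.48 against DMSO, and slide as a block gave -0.29 for TT4 with 7NIT. The normexp offset of 50 shrinks differences between dim spots, so the turns of dim genes do not settle their direction. The cause was not tested. Signals near background limit the precision of the dim genes.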
